A study of Mus musculus with 25 samples.

Results

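The secondary palate of the mouse has an oral face, which becomes the roof of the mouth, and a nasal face, which becomes the floor of the nasal passage. Posterior oral and posterior nasal palate were compared here, with 3 libraries of each, so 6 of the 25 libraries of the series. Both compartments came from wild type CD1 mouse embryos at E14.5 of gestation, shortly after the palatal shelves meet. By their labels they differed in the side of the posterior shelf that was cut out by laser capture microdissection. The libraries also differed in the run named in their alignments and in inferred reads, as given below. The oral and nasal captures of the anterior palate (3 and 4 libraries) and the medial and lateral captures of both regions served for comparison. Each library is a biological replicate of the study, and the labels do not say how many embryos went into it. The alignment names of the replicate 1 library of each compartment carry the tag Tgfbr2_WT, whereas the labels give CD1 wild type for all 6. Expression was measured as RPKM, which scales reads to the length of the transcript and to the mapped reads of the library. A gene was tested when it reached 5 RPKM in at least 3 of the 6 libraries, which left 10586 of 37406 listed genes, and 16727 genes were listed at 0 in all 6 libraries. A gene could thus be tested through the 3 libraries of 1 compartment alone, with low values in the other. Coordinates of genes are those of the mm9 build.

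Bone of the palate forms directly from condensed mesenchyme. Runx2 and its target Sp7 commit mesenchymal cells to the osteoblast lineage, and osteoblasts then lay down a collagen matrix and load it with mineral. The mesenchyme of the oral side is known to answer Sonic hedgehog from the oral epithelium, through forkhead and Osr factors and a feedback loop with Fgf10. BMP, FGF and Wnt ligands and their secreted inhibitors set where growth and bone formation take place. The posterior shelf later gives rise to part of the bony palate and to the soft palate.

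The posterior nasal palate had higher levels of 11 of 25 tested bone genes, among them Runx2, Sp7, Alpl and Ibsp. The posterior oral palate had higher levels of 5 of 22 tested leucine-rich repeat genes, such as Lrrtm1. It also had higher levels of 3 of 18 tested cadherin and immunoglobulin-type adhesion genes, such as Cdh20. Further oral genes were the netrin receptor Dcc, the transcription factors Osr1, Foxf2 and Foxd1, and the ligands Fgf10 and Fgf18. With single libraries left out, Runx2 had a limma adjusted p under 0.05 in 0 of 6 fits, and Ibsp and Cdh20 each in 1 of 6. With the limma moderated test on log2(RPKM + 0.1) and Benjamini-Hochberg adjustment over all genes tested, 132 genes (1.25% of 10586) had an adjusted p under 0.05. Of these, 62 (0.586%) were higher in oral and 70 (0.661%) higher in nasal palate. Fold changes are on the log2(RPKM + 0.1) scale throughout, and positive values mean higher in oral. The median difference over all tested genes was -0.01. All 132 genes had values that did not overlap between the compartments and differed by over 2-fold, 21 oral and 29 nasal genes differed by over 5-fold. By the thresholds of the study (unadjusted P under 0.05 and over 2-fold), 209 genes were higher in oral (1.97%) and 161 in nasal palate (1.52%). Without the fold threshold, 847 of the 10586 tested genes had an unadjusted P under 0.05 by limma, both directions together. The counts at that threshold given below for gene lists can be set beside this background as a description. The lists were chosen with earlier results of these data known, so an excess over the background is no test. Values of the compartments did not overlap at 657 genes higher in oral (6.21%) and 597 higher in nasal palate (5.64%).

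**Figure D1:**
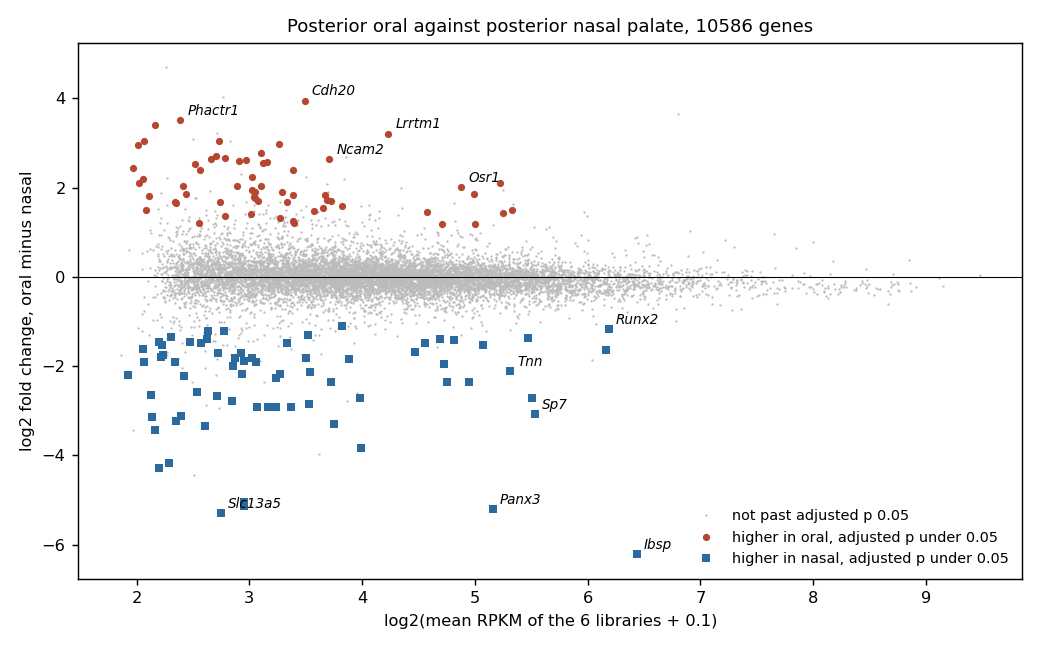
Difference between posterior oral and posterior nasal palate (vertical axis, log2 fold change) against the mean level of the 6 libraries (horizontal axis, log2 RPKM) for the 10586 tested genes. Red circles are the 62 genes higher in oral and blue squares the 70 genes higher in nasal palate at an adjusted p under 0.05; Ibsp, at -6.22, lies farthest from 0.

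The 6 libraries held an inferred 2510000 to 6250000 reads, from the smallest steps between RPKM values, so 1 read on a transcript of 2000 bases was worth 0.0800 to 0.199 RPKM. Oral replicate 3 was closer to nasal replicate 2 (Pearson r of log2(RPKM + 0.1) over the tested genes 0.919) than to the other oral libraries (r 0.874 to 0.884). Without oral replicate 3, 16 genes were called higher in oral and 29 in nasal palate. The run names in the alignments were shared by oral and nasal replicate 1 and by oral replicates 2 and 3 with nasal replicate 2, whereas nasal replicate 3 stood alone in its run. All 132 called genes had the same direction within each of the shared runs. Their values did not overlap between the compartments, which fixes that direction in advance. The same holds with the run as a block and in leave-one-out fits, so direction there is no separate evidence. With the run as a block, 5 oral and 10 nasal genes were called, of which 3 and 10 were among the 132, and leaving out single libraries gave 12 to 35 oral and 17 to 51 nasal genes, the fewest without nasal replicate 3. Of 61 called genes chosen by the naming rule, 15 passed in all 6 leave-one-out fits (Phactr1, Lrrtm1, Podn, Dcc, Ncam2, Car3, Ndufa4l2, Smpd3, Ramp1, Slc8a3, Sp7, Sgms2, Ifitm5, Tcf7 and Pax3) and 6 in none (Runx2, Dusp6, Cntn3, Nrp2, Krt18 and Emcn), with 20 passing without nasal replicate 3 and 43 without oral replicate 1. With the run as a block 50 of the 61 lost their call, among them Sp7, Lrrtm1, Podn, Ncam2, Ndufa4l2, Tcf7 and Pax3 of the 15, and 11 kept it (Phactr1, Lrrc4c, Dcc, Car3, Smpd3, Ramp1, Gm10629, Slc8a3, Acan, Sgms2 and Ifitm5), all 61 with the same direction.

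Markers of palatal mesenchyme were abundant in both compartments. Of 8 mesenchyme markers all were tested and 0 called, with 2 oral and 0 nasal at an unadjusted P under 0.05 by limma, and Prrx1 lay between 84.2 and 134 RPKM in the 6 libraries. Endothelial genes had larger values on the oral side. Their summed level was 331 to 466 RPKM in the oral and 161 to 236 RPKM in the nasal libraries, 15 of 16 tested members had a positive difference (median 1.04), 11 did not overlap between the compartments, and Emcn, the vessel sialomucin endomucin, was the member called. Emcn was at 28.1, 18.5 and 16.9 RPKM in oral and 5.56, 6.49 and 8.85 RPKM in nasal libraries (log2 difference 1.58 ± 0.28 (SE), limma adjusted p = 0.0401). Summed red cell genes were also higher in oral (852 to 1198 RPKM) than nasal libraries (429 to 768 RPKM), with 0 of 6 tested members called by limma and 3 at an unadjusted P under 0.05. The part of vessels and blood in the oral results was not tested, and in bulk tissue fewer cells of a type cannot be told apart from less RNA per cell.

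Of 34 epithelial markers 5 reached the minimum for testing, with 0 called in oral and 1 in nasal palate. Their summed level was 53.0 to 76.2 RPKM in oral and 67.1 to 123 RPKM in nasal libraries. Krt18, a keratin of simple epithelia, was higher in nasal palate (log2 difference -1.61 ± 0.26, limma adjusted p = 0.0284). Krt5 (log2 difference 0.29, limma adjusted p = 0.999) and Krt14 (-0.59, limma adjusted p = 0.849) overlapped between the compartments. Epcam and Cdh1 fell below the minimum for testing and overlapped too. Markers of ciliated and secretory nasal epithelium, 0 of 13 tested, summed to 4.19 to 13.7 RPKM in oral and 12.2 to 42.1 RPKM in nasal libraries. Foxj1, the regulator of motile cilia, was at 1.06, 0.212 and 0.930 RPKM in oral and 2.01, 3.88 and 1.84 RPKM in nasal libraries, and Trp63, a factor of stratified epithelium, at 0.687 to 1.06 and 1.30 to 2.21 RPKM. Neither gene overlapped between the compartments, and the part of epithelium in the nasal results was not tested. Shh was listed at 0 in all 3 oral libraries and at 0.0618, 0 and 15.3 RPKM in the nasal libraries, so a high value came from nasal replicate 3 alone. Of the defining skeletal muscle genes, Myod1, Myog and Pax7 reached at most 1.38 RPKM in any library. Myh3 reached 6.93 RPKM in oral replicate 1 and 6.46 RPKM in nasal replicate 1. Summed skeletal muscle markers were at 72.5 to 118 RPKM in oral and 49.7 to 114 RPKM in nasal libraries, highest in replicate 1 of each. Nerve and Schwann cell markers had 6 tested members, with 0 called in oral and 1 in nasal palate. Sox10, which marks glia of the neural crest, was at 13.1, 16.4 and 4.77 RPKM in oral against 2.56, 0.285 and 0.444 RPKM in nasal libraries and fell below the minimum for testing. Nefm, a neurofilament and the called member, was higher in nasal palate (log2 difference -2.77 ± 0.52, adjusted p = 0.0491).

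Bone genes made the largest called group on the nasal side among the lists. Of 36 osteoblast and bone matrix genes 25 were tested, and 11 were called higher in nasal and 0 in oral palate (0.661% and 0.586% of all tested genes), with 15 and 0 at an unadjusted P under 0.05. The median difference of the 25 was -1.13, against -0.01 for all tested genes, and 16 did not overlap between the compartments. Their summed level was 1273 to 1554 RPKM in oral and 2003 to 2307 RPKM in nasal libraries. The list was chosen with earlier results of these data known, and the study named Ibsp, Panx3, Dlx3 and Sp7 for this comparison. The list counts are therefore a description and no test against the share of all genes. Col1a1, named after its values were seen, the main collagen of bone and of other connective tissue, was at 139, 237 and 164 RPKM in oral and 244, 187 and 204 RPKM in nasal libraries (adjusted p = 0.999).

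The transcription factors of the lineage were graded. Runx2 was at 53.2, 42.1 and 39.1 RPKM in oral and 97.1, 96.7 and 109 RPKM in nasal libraries, so both sides expressed it and the nasal side had 2.26-fold more (log2 difference -1.18 ± 0.21, limma adjusted p = 0.0419). The adjusted p of Runx2 exceeded 0.05 when any of the 6 libraries was left out, with differences of -1.31 to -1.09. Sp7 (osterix), which acts downstream of Runx2, was at 7.25, 11.5 and 9.96 RPKM in oral and 108, 56.5 and 83.6 RPKM in nasal libraries. The groups were far apart, 8.43-fold (log2 difference -3.08 ± 0.30, adjusted p = 0.00460), and the call held in all 6 leave-one-out fits but not with the run as a block (-3.03, adjusted p = 0.0852). Dlx5, a homeobox activator of bone genes, was at 14.2, 6.63 and 9.26 RPKM in oral and 74.4, 39.8 and 40.3 RPKM in nasal libraries (log2 difference -2.35 ± 0.35, adjusted p = 0.0227). Dlx3, a homeobox factor of osteoblasts and tooth, was at 0.491, 0.559 and 0 RPKM in oral against 29.5, 6.58 and 8.58 RPKM in nasal libraries (log2 difference -5.14 ± 0.79, adjusted p = 0.0256). The oral values of Dlx3 amount to a few reads. Runx3, a paralog of Runx2 named here after its values were seen, was at 0.994, 1.25 and 0.345 RPKM in oral and 8.86, 5.91 and 8.45 RPKM in nasal libraries (log2 difference -3.15 ± 0.41, adjusted p = 0.0143).

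Genes of the osteoblast surface and matrix were among the widest contrasts of the comparison. Ibsp, the bone sialoprotein of mineralizing matrix, was at 14.9, 1.00 and 0.555 RPKM in oral and 215, 135 and 152 RPKM in nasal libraries (log2 difference -6.22 ± 1.00, adjusted p = 0.0284). Oral replicate 1 stood above the other oral libraries, and without that library the difference was -7.60 and passed, whereas it lost its call when any of the other 5 libraries was left out (-5.34 without oral replicate 3). Panx3, a channel protein of osteoblasts and cartilage cells, was at 2.15, 0.463 and 4.63 RPKM in oral and 58.5, 55.9 and 91.7 RPKM in nasal libraries (log2 difference -5.21 ± 0.67, adjusted p = 0.0143). Smpd3, a sphingomyelinase needed for normal mineralization, was at 1.97, 1.63 and 2.11 RPKM in oral and 42.0, 20.1 and 27.2 RPKM in nasal libraries (log2 difference -3.84 ± 0.29, adjusted p = 0.00175). Sgms2, an enzyme of sphingomyelin synthesis, moved the same way, from 1.96 to 2.97 RPKM in oral and from 13.9 to 20.5 RPKM in nasal libraries (adjusted p = 0.00326), so an enzyme that makes sphingomyelin and an enzyme that breaks it down were both higher on the nasal side. Ifitm5, a membrane protein of osteoblasts, ranged over 10.5 to 14.2 RPKM in oral and 61.2 to 90.2 RPKM in nasal libraries (adjusted p = 0.00326), and Kazald1 over 1.13 to 3.14 and 9.49 to 14.0 RPKM (adjusted p = 0.0202). Alpl, the alkaline phosphatase that frees phosphate for mineral, was at 29.9, 41.6 and 32.9 RPKM in oral and 125, 88.0 and 113 RPKM in nasal libraries (3.11-fold, adjusted p = 0.0197).

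**Figure D2:**
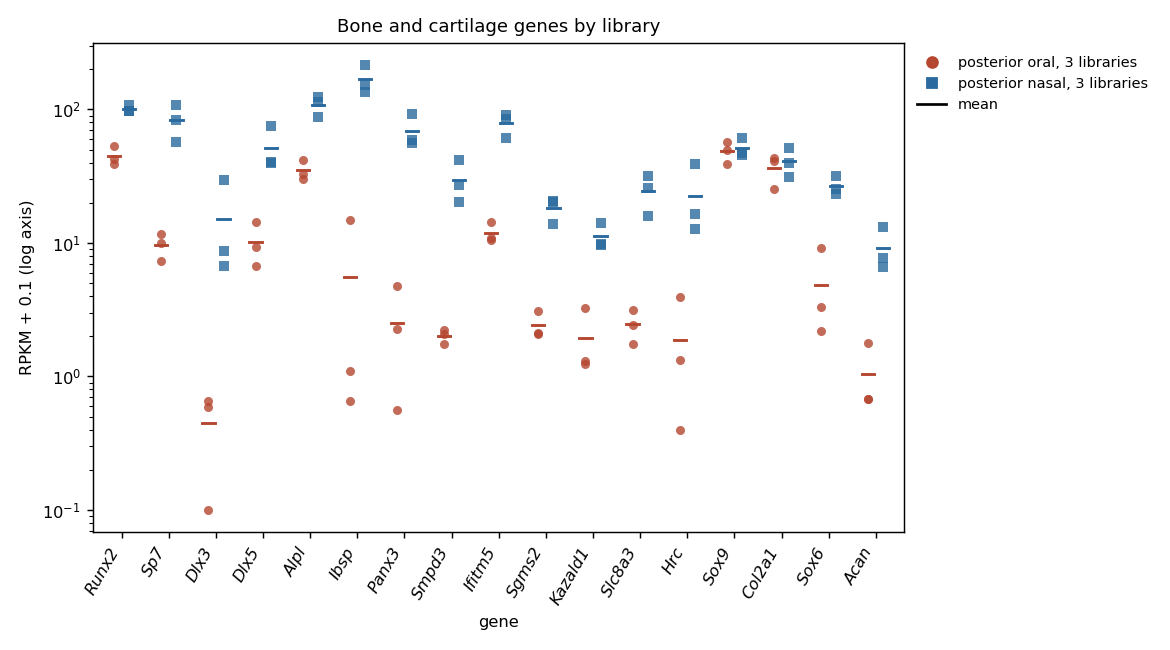
RPKM + 0.1 (log axis) of bone and cartilage genes in the 3 posterior oral (red circles) and 3 posterior nasal libraries (blue squares), with lines at the means. Ibsp, Panx3, Dlx3 and Hrc are far apart, Runx2 is separated by 2.26-fold, and Sox9 and Col2a1 overlap.

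Other bone and mineral genes named by the rule were too low to test. Phex, an endopeptidase of phosphate balance, lay at 1.59 to 3.20 RPKM in oral and 2.15 to 4.84 RPKM in nasal libraries, and Spp1 (osteopontin) reached at most 1.72 RPKM in either of its 2 rows, so neither gene was tested. Phospho1, a phosphatase of matrix vesicles, was at 0.104 RPKM in oral replicate 1 and listed at 0 in the other oral libraries, against 1.95, 0.441 and 0.219 RPKM in nasal libraries. Of the bone resorbing osteoclast genes, Acp5 reached at most 5.24 RPKM and Ctsk, also made by fibroblasts, overlapped between the compartments (adjusted p = 0.999).

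Genes that handle phosphate and calcium split between the sides. Of 23 listed, 12 were tested and 1 was called in each direction. Enpp1, which makes the mineralization inhibitor pyrophosphate, was at 10.9, 14.0 and 14.8 RPKM in oral and 2.92, 2.57 and 1.15 RPKM in nasal libraries (log2 difference 2.61 ± 0.35, adjusted p = 0.0153). Ank, a transporter that carries pyrophosphate out of cells, overlapped (4.77 to 8.40 against 5.001 to 6.40 RPKM, adjusted p = 0.999). Slc8a3, a sodium and calcium exchanger, was at 3.07, 1.65 and 2.34 RPKM in oral and 31.6, 15.9 and 25.8 RPKM in nasal libraries (log2 difference -3.31 ± 0.32, adjusted p = 0.00475). Hrc, a calcium binding protein of internal stores, did not overlap either, at 0.297 to 3.83 RPKM in oral and 12.7 to 38.6 RPKM in nasal libraries, and missed the threshold (log2 difference -3.98 ± 0.77, adjusted p = 0.0555). So the gene for an inhibitor of mineralization was on the side opposite to the bone genes.

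Of 22 cartilage genes 15 were tested, with 2 called in nasal and 0 in oral palate, and 6 and 0 at an unadjusted P under 0.05. The difference was negative for 13 of the 15 (median -0.63), 5 did not overlap between the compartments, all with larger nasal values, and the summed level was 223 to 276 RPKM in oral and 363 to 422 RPKM in nasal libraries. Sox9, the factor that starts cartilage formation, overlapped completely (56.8, 49.8 and 38.8 RPKM in oral and 61.4, 45.6 and 47.0 RPKM in nasal libraries, adjusted p = 0.999), and so did Col2a1, the main cartilage collagen (25.3 to 43.2 against 30.9 to 51.4 RPKM, adjusted p = 0.999). Acan, the aggrecan core protein, was at 1.67, 0.578 and 0.581 RPKM in oral and 13.1, 7.60 and 6.48 RPKM in nasal libraries (log2 difference -3.23 ± 0.43, adjusted p = 0.0149). Sox6, a partner of Sox9, was at 8.98, 2.08 and 3.23 RPKM in oral and 25.2, 23.2 and 31.5 RPKM in nasal libraries (log2 difference -2.71 ± 0.47, adjusted p = 0.0383). Among 24 tested tenascins and matricellular proteins, 1 was called in nasal and 0 in oral palate, 6 and 1 at an unadjusted P under 0.05. That gene was Tnn, tenascin W of bone-forming tissue, at 9.70, 14.6 and 22.0 RPKM in oral and 56.3, 67.5 and 68.1 RPKM in nasal libraries (log2 difference -2.12 ± 0.31, adjusted p = 0.0202).

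The genes with the widest nasal contrasts also included some outside these lists. Slc13a5, a citrate transporter found in bone, was at 0.311, 0.656 and 0 RPKM in oral and 19.3, 8.76 and 10.7 RPKM in nasal libraries (log2 difference -5.29 ± 0.67, adjusted p = 0.0142). Car3, carbonic anhydrase 3, was at 0.425, 0.221 and 0.412 RPKM against 10.8, 7.58 and 7.60 RPKM (log2 difference -4.29 ± 0.27, adjusted p = 0.00175). Ramp1, which pairs with the receptor for calcitonin gene-related peptide, was at 0.529, 0.578 and 0.898 RPKM against 8.70, 6.53 and 8.97 RPKM (adjusted p = 0.00175). These genes met the minimum of 5 RPKM through the nasal libraries alone and had few reads on the oral side. A low oral and moderate nasal level is therefore what the filter admits. Ndufa4l2, a mitochondrial protein, ranged over 0.166 to 1.13 RPKM in oral and 8.29 to 10.3 RPKM in nasal libraries (adjusted p = 0.0129), and Rpl39l over 0 to 1.79 and 10.9 to 18.4 RPKM (adjusted p = 0.0391). Rpl39l has a near-identical paralog, so the split of reads between them is uncertain. Gm10629 lies inside Smpd3 on chromosome 8 (108806186 to 108859654) and, since the libraries do not keep strand, its reads cannot be told from those of Smpd3.

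Growth factors differed by ligand. Of 9 tested BMP and GDF ligands 2 were called in nasal and 0 in oral palate, 2 and 1 at an unadjusted P under 0.05. Bmp6, an inducer of bone formation, was at 3.83, 6.40 and 2.83 RPKM in oral and 24.4, 15.5 and 16.2 RPKM in nasal libraries (log2 difference -2.13 ± 0.33, adjusted p = 0.0273). Gdf10 was at 12.7, 9.52 and 9.68 RPKM in oral and 53.5, 38.1 and 34.3 RPKM in nasal libraries (log2 difference -1.96 ± 0.25, adjusted p = 0.0142). Bmp4 leaned the other way without passing the threshold, at 44.6, 40.9 and 40.9 RPKM in oral and 15.6, 18.6 and 8.03 RPKM in nasal libraries (log2 difference 1.66 ± 0.32, adjusted p = 0.0549). Bmp2 overlapped between the sides (13.4 to 19.7 against 12.4 to 15.2 RPKM, adjusted p = 0.999), and Bmp7 also did (5.11 to 7.93 against 7.67 to 18.0 RPKM, adjusted p = 0.693). The ligands thus did not form a single block.

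Among genes that act on BMP ligands, the secreted inhibitor Grem1 did not overlap between the compartments (10.8 to 12.62 against 1.03 to 6.17 RPKM) and did not pass (log2 difference 2.31 ± 0.54, adjusted p = 0.115). The receptor Bmpr1a overlapped, with 43.5 to 56.4 RPKM in oral and 44.2 to 59.9 RPKM in nasal libraries (adjusted p = 0.999), and Noggin (Nog) reached at most 3.53 RPKM.

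The FGF ligands and receptors that were called went in opposite directions. Of 15 tested genes of the pathway 3 were called in oral and 2 in nasal palate. Fgf10, the mesenchymal ligand that signals to epithelium, was at 7.40, 7.77 and 10.03 RPKM in oral and 1.98, 2.66 and 1.40 RPKM in nasal libraries (log2 difference 2.04 ± 0.27, adjusted p = 0.0155). Fgf18, a ligand of bone and cartilage growth, was at 15.0, 18.6 and 17.9 RPKM in oral and 2.14, 5.77 and 2.57 RPKM in nasal libraries (log2 difference 2.39 ± 0.36, adjusted p = 0.0222). Dusp6, a phosphatase induced by FGF and ERK signalling, was higher on the oral side too (14.2, 26.3 and 15.8 against 7.09, 6.49 and 4.99 RPKM, adjusted p = 0.0468). Both called receptors were higher on the nasal side, whereas Fgfr1, named after its values were seen, overlapped (53.2 to 92.1 against 53.8 to 66.8 RPKM, adjusted p = 0.999). Fgfr2 was at 30.9, 20.4 and 23.7 RPKM in oral and 64.4, 57.8 and 68.5 RPKM in nasal libraries (log2 difference -1.36 ± 0.23, adjusted p = 0.0345). Fgfr3 was at 3.31, 4.12 and 3.06 RPKM in oral and 13.8, 10.2 and 13.7 RPKM in nasal libraries (log2 difference -1.82 ± 0.23, adjusted p = 0.0142). Fgf7 overlapped (4.24 to 8.26 against 7.02 to 10.6 RPKM, adjusted p = 0.918).

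Of 35 tested Wnt pathway genes 2 were called in nasal and 0 in oral palate, 6 and 4 at an unadjusted P under 0.05, and the median difference was -0.01. Tcf7, a nuclear factor that acts with beta-catenin, was at 8.28, 7.83 and 9.94 RPKM in oral and 44.4, 39.9 and 50.7 RPKM in nasal libraries (log2 difference -2.36 ± 0.21, adjusted p = 0.00326). Dkk1, a secreted Wnt inhibitor, was at 3.73, 3.78 and 2.79 RPKM in oral and 14.8, 9.16 and 10.9 RPKM in nasal libraries (log2 difference -1.71 ± 0.25, adjusted p = 0.0212). So a nuclear mediator and an inhibitor of the pathway were both higher on the nasal side, whereas the target Axin2 overlapped (17.2 to 23.3 against 16.5 to 36.0 RPKM, adjusted p = 0.999). Wnt5a (17.2 to 27.8 against 14.8 to 17.5 RPKM) and the abundant Sfrp2 (430 to 616 against 283 to 474 RPKM) did not pass the threshold (adjusted p = 0.664 and 0.999).

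Osr1, Foxf2 and Foxd1 were higher on the oral side. Of 17 tested genes in the hedgehog, forkhead and Osr list 3 were called in oral and 0 in nasal palate, 5 and 1 at an unadjusted P under 0.05, and the 3 were transcription factors rather than members of the hedgehog pathway itself. Osr1, a zinc finger factor of palatal growth, was at 44.0, 55.3 and 41.5 RPKM in oral and 9.43, 15.6 and 10.2 RPKM in nasal libraries (log2 difference 2.01 ± 0.26, adjusted p = 0.0142). Its paralog Osr2 followed in direction (60.9, 80.8 and 40.9 against 28.1, 18.4 and 12.8 RPKM) without passing (adjusted p = 0.0881). Foxf2 was at 30.6, 69.4 and 51.5 RPKM in oral and 10.8, 15.3 and 13.4 RPKM in nasal libraries (log2 difference 1.87 ± 0.32, adjusted p = 0.0374). Foxd1 was at 11.4, 7.15 and 6.83 RPKM in oral and 2.55, 1.69 and 2.43 RPKM in nasal libraries (log2 difference 1.86 ± 0.28, adjusted p = 0.0214). Foxf1a overlapped, at 8.82, 19.9 and 12.5 RPKM in oral and 19.1, 6.91 and 6.17 RPKM in nasal libraries (adjusted p = 0.999), and was lower in oral within replicate 1 (-1.10). Direct readouts of hedgehog signalling overlapped. The receptor Ptch1 was at 58.0, 82.6 and 68.8 RPKM in oral and 61.8, 42.7 and 62.6 RPKM in nasal libraries (adjusted p = 0.999), and Gli1 at 14.2 to 32.6 and 14.9 to 28.9 RPKM (adjusted p = 0.999). Gli1 changed order between runs, lower in oral within replicate 1 (-1.02) and higher within the other shared run (0.79).

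Since several of the factors called here bind DNA, promoter windows of the called genes were read from RefSeq (build GRCm38.p6, 250 bases before to 50 after a start site). RefSeq windows were matched for 52 of the 62 oral and 49 of the 70 nasal genes. The RUNX core TGTGGT, read on both strands, was in 12 of 71 windows of nasal genes (16.9%) and 6 of 69 windows of oral genes (8.70%), against 11.7% of windows of all tested genes and 16.8% of all windows in the table. The TCF core CTTTGA was in 23.9% of nasal and 17.4% of oral windows, against 11.4% and 16.003%. The forkhead core TGTTTA was in 11.3% of nasal and 10.1% of oral windows, against 8.16% and 13.4%, and the homeodomain core TAATTA in 1.41% and 4.35%, against 2.39% and 5.29%. A match is a run of letters and not a measured binding site. Shown first are the 250 bases before the start site of 3 genes higher in nasal palate, chosen for their RUNX or TCF matches. The window of Ifitm5 holds a TCF core and no RUNX core. Runx2 and Tcf7 were both higher in nasal palate, and whether they act on these genes was not tested. Capitals mark the RUNX core (ACCACA on the strand shown) and the TCF core (CTTTGA or TCAAAG).
Runx2 chr17:44814628-44814877 (- strand): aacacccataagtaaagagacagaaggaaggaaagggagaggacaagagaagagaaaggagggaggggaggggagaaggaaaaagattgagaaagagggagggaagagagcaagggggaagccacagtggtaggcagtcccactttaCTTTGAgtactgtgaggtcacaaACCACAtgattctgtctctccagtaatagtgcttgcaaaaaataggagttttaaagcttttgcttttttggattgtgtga
Dkk1 chr19:30549497-30549746 (- strand): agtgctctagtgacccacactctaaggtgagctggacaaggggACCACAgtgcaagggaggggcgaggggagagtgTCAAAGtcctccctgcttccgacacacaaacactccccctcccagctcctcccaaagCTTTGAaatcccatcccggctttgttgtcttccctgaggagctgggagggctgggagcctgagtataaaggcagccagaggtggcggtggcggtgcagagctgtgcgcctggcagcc
Ifitm5 chr7:140950244-140950493 (- strand): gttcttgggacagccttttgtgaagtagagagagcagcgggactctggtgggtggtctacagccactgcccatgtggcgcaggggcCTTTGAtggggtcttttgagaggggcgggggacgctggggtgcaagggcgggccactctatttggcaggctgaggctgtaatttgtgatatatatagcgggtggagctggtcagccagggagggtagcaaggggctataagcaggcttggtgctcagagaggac
In the window of Runx2 the TCF core begins 103 and the RUNX core 80 bases before the start site. The next windows are those of 2 genes higher in oral palate, also chosen for their matches, with the forkhead core TGTTTA in capitals. That core was in 10.1% of oral and 11.3% of nasal windows. Whether Foxf2 or Foxd1, both higher in oral palate, act on these genes was not tested.
Fgf10 chr13:118714449-118714698 (+ strand): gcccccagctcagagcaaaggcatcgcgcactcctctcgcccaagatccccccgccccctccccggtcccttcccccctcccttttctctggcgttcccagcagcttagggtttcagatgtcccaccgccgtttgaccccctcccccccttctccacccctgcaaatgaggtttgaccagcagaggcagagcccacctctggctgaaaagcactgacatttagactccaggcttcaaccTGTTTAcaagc
Cntn3 chr6:102464668-102464917 (- strand): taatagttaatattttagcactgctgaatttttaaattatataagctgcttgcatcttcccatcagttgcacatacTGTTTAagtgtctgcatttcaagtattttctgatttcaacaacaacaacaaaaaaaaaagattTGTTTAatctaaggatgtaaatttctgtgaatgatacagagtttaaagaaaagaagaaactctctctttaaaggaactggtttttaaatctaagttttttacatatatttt

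Among other transcription factors of the palate, 25 were tested and 1 was called in each direction, yet 13 leaned to oral and 4 to nasal palate at an unadjusted P under 0.05, with a median difference of 0.61. Pax3, a paired factor of the neural crest, was at 3.00, 2.26 and 3.12 RPKM in oral and 10.8, 13.4 and 10.1 RPKM in nasal libraries (log2 difference -2.00 ± 0.23, adjusted p = 0.0111). Npas3 was at 14.7, 15.8 and 14.8 RPKM in oral and 3.85, 6.84 and 3.86 RPKM in nasal libraries (log2 difference 1.67 ± 0.27, adjusted p = 0.0284). Factors known for palate development had smaller differences that did not pass. Pax9 lay at 95.8 to 145 RPKM in oral and 65.3 to 71.8 RPKM in nasal libraries (0.74 ± 0.22, adjusted p = 0.264). Tbx22, mutated in human cleft palate with ankyloglossia, lay at 22.2 to 25.1 and 14.1 to 16.6 RPKM (0.65 ± 0.20, adjusted p = 0.264). Barx1, a marker of posterior palate, overlapped (76.0 to 123 against 48.9 to 84.4 RPKM, adjusted p = 0.697).

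Several genes called on the oral side encode proteins that sit on the cell surface and hold cells or neurites together. Of 22 tested leucine-rich repeat genes 5 were called in oral and 0 in nasal palate. At an unadjusted P under 0.05 there were 11 and 1, with a median difference of 0.86. This list too was chosen with earlier results of these data known. The study named Lrrtm1, Lrrtm3, Lrrc4c and Lrrc3b for this comparison, so the list counts are a description. Lrrtm1, known as an organizer of excitatory synapses, was at 29.3, 45.8 and 26.6 RPKM in oral and 4.17, 3.20 and 3.19 RPKM in nasal libraries (9.20-fold, log2 difference 3.20 ± 0.26, adjusted p = 0.00267). Lrrtm3 was at 15.2, 12.9 and 9.66 RPKM in oral and 1.21, 3.95 and 1.52 RPKM in nasal libraries (adjusted p = 0.0284). Lrrc4c, the netrin-G ligand NGL-1, was at 18.1, 9.62 and 7.08 RPKM in oral and 2.79, 0.923 and 0.661 RPKM in nasal libraries (adjusted p = 0.0374). These 3 genes are best known from neurons, while the tested nerve markers gave no member higher in oral at an adjusted p under 0.05 and 1 at an unadjusted P under 0.05. Lrrc3b ranged over 10.2 to 22.8 RPKM in oral and 1.70 to 3.47 RPKM in nasal libraries (adjusted p = 0.0185), and Lingo2 over 8.26 to 18.9 and 2.69 to 3.59 RPKM (adjusted p = 0.0295).

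Cadherins and immunoglobulin-type adhesion genes had 18 tested members, of which 3 were called in oral and 0 in nasal palate. At an unadjusted P under 0.05 there were 8 and 0 (median difference 0.84). The study named Cdh20, Cdh18 and Ncam2 for this comparison before the list was chosen, so these counts are a description too. Cdh20, a classical type II cadherin, was at 18.1, 28.5 and 14.9 RPKM in oral and 0.398, 3.95 and 0.964 RPKM in nasal libraries (15.4-fold, log2 difference 3.94 ± 0.67, adjusted p = 0.0368). It had the largest oral difference of the called genes, and its call held when 1 of the 6 libraries was left out and failed for the other 5. Ncam2, a neural cell adhesion molecule, was at 30.1, 15.0 and 22.3 RPKM in oral and 4.14, 3.70 and 2.59 RPKM in nasal libraries (log2 difference 2.63 ± 0.31, adjusted p = 0.0118). Cntn3, a contactin, was at 17.2, 9.72 and 11.8 RPKM in oral and 2.19, 3.36 and 4.70 RPKM in nasal libraries (adjusted p = 0.0381). Cdh18 did not overlap (15.4 to 22.5 against 1.63 to 7.76 RPKM) and did not pass (adjusted p = 0.172).

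Guidance genes included calls on both sides. Of 30 tested semaphorins, slits, netrins and receptors 3 were called in oral and 1 in nasal palate, 7 and 8 at an unadjusted P under 0.05. Dcc, the netrin receptor, was at 9.63, 11.8 and 10.9 RPKM in oral and 1.67, 1.72 and 1.56 RPKM in nasal libraries, with little spread on either side (6.21-fold, log2 difference 2.63 ± 0.20, adjusted p = 0.00175). Sema5b was at 19.2, 18.7 and 10.7 RPKM in oral and 6.45, 3.80 and 3.35 RPKM in nasal libraries (adjusted p = 0.0441). The 2 neuropilins, which serve as coreceptors for class 3 semaphorins and for VEGF, went in opposite directions. Nrp1 was at 16.8, 16.1 and 19.0 RPKM in oral and 5.63, 6.88 and 6.13 RPKM in nasal libraries (log2 difference 1.47 ± 0.20, adjusted p = 0.0163). Nrp2 was at 21.8, 12.62 and 17.4 RPKM in oral and 63.5, 41.5 and 44.5 RPKM in nasal libraries (log2 difference -1.53 ± 0.28, adjusted p = 0.0437). Nrp1 is also made by endothelial cells, whose summed markers were higher in oral palate as given above.

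**Figure D3:**
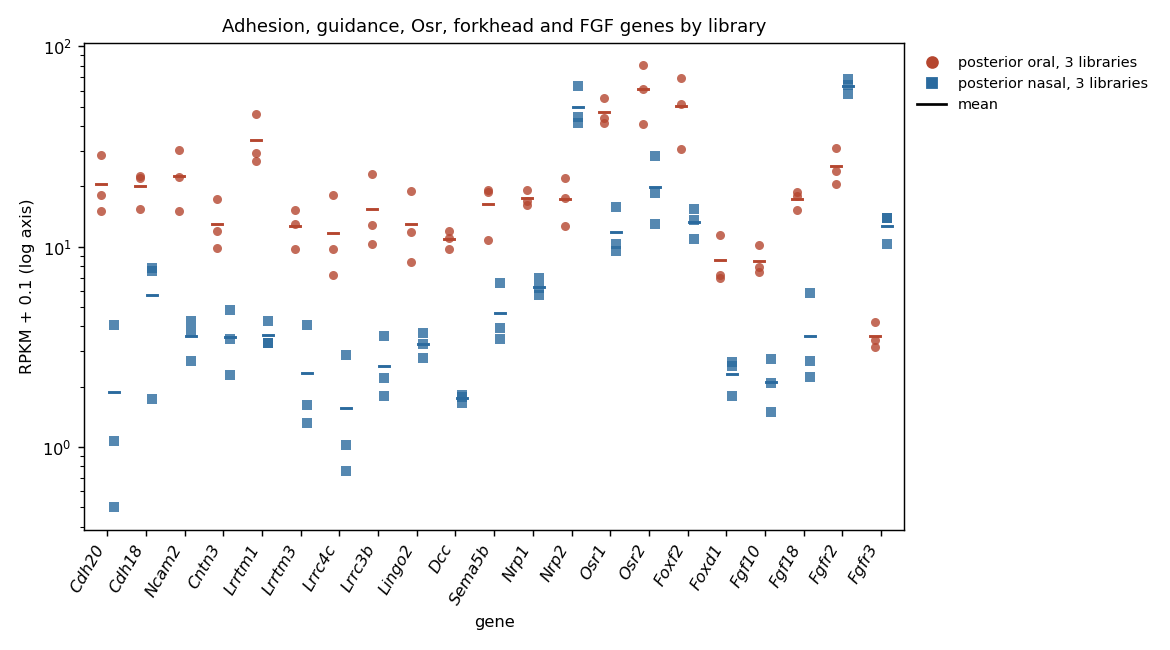
RPKM + 0.1 (log axis) of adhesion, guidance, Osr, forkhead and FGF genes in the 3 posterior oral (red circles) and 3 posterior nasal libraries (blue squares), with lines at the means. Nrp2, Fgfr2 and Fgfr3 are higher in nasal palate and all other genes shown have their higher mean in oral palate; Cdh18 and Osr2 did not pass the adjusted threshold.

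The remaining oral genes with the widest contrasts belonged to no single family. Phactr1, a regulator of actin and protein phosphatase 1, was at 8.21, 12.4 and 7.83 RPKM in oral and 0.449, 0.771 and 1.07 RPKM in nasal libraries (11.4-fold, log2 difference 3.51 ± 0.32, adjusted p = 0.00367). Ppfia2, a liprin scaffold protein of synapses, was at 8.74, 5.78 and 6.48 RPKM against 0.503, 1.45 and 0.685 RPKM (adjusted p = 0.0129). Vstm2a lay at 6.22 to 8.99 and 0.363 to 1.21 RPKM (adjusted p = 0.0143), and Podn, a matrix proteoglycan of the leucine-rich type, at 9.13 to 15.7 and 1.04 to 2.30 RPKM (adjusted p = 0.0142). Cldn1, a tight junction claudin, spread widely on the oral side, with 6.32, 16.1 and 22.5 RPKM in oral and 1.98, 2.88 and 1.11 RPKM in nasal libraries (adjusted p = 0.0423). Fam69c (5.57 to 10.1 against 0.306 to 1.45 RPKM, adjusted p = 0.0163), Fam83b (5.60 to 19.4 against 0.989 to 2.25 RPKM, adjusted p = 0.0374) and the transcript 1700018A04Rik (12.8 to 19.0 against 0.816 to 5.004 RPKM, adjusted p = 0.0468) were further called genes with wide differences.

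Among cell cycle genes 1 was called in nasal and 0 in oral palate. All 32 were tested, with a median difference of -0.03, and Mki67, a marker of dividing cells, overlapped (47.4 to 115 against 76.6 to 93.1 RPKM, adjusted p = 0.999). The called gene was Cdkn1a, the inhibitor p21, which was at 1.95, 4.07 and 3.67 RPKM in oral and 14.4, 18.9 and 12.96 RPKM in nasal libraries (log2 difference -2.27 ± 0.31, adjusted p = 0.0163). Among 15 tested PDGF, IGF and EGF genes 0 were called by limma, with 5 oral and 1 nasal at an unadjusted P under 0.05, and Pdgfd came closest (6.43 to 9.11 RPKM in oral and 0.595 to 2.82 RPKM in nasal libraries, adjusted p = 0.0955). Macrophage markers had 11 tested members and 0 called, 0 at an unadjusted P under 0.05 in either direction, with a median difference of 0.42, and the 6 tested smooth muscle and pericyte markers had 0 called and 2 at an unadjusted P under 0.05. Rgs5, a pericyte gene, was the nearest of these to the threshold (9.46 to 34.1 against 2.75 to 3.78 RPKM, adjusted p = 0.0597).

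The levels in the other 6 compartments placed these differences within the palate. The posterior nasal palate had the highest mean of all 8 compartments for 61 of the 70 genes called higher in nasal (87.1%), against 20.9% of all tested genes. It had the lowest mean for 35 of the 62 genes called higher in oral (56.5%), against 11.1% of all tested genes. The posterior oral palate had the highest mean for 15 of those 62 (24.2%, against 17.0% of all tested genes). These shares are descriptions, since the genes were called on the same posterior values. Ibsp averaged 168 RPKM in posterior nasal palate and 1.14 to 31.6 RPKM elsewhere, where a single anterior lateral library reached 93.9 RPKM. Sp7 averaged 82.8 RPKM there and at most 19.0 RPKM elsewhere, in posterior lateral palate, and Panx3 68.7 RPKM against at most 11.1 RPKM, in the same compartment. Foxf2 was the reverse case, at 13.2 RPKM in posterior nasal palate and 42.8 to 88.5 RPKM in the other 7 compartments. Cdh20, Phactr1 and Lrrtm1 were high in posterior lateral (24.7, 10.2 and 23.7 RPKM) and posterior medial palate (32.0, 8.80 and 30.2 RPKM) as well as posterior oral palate (20.5, 9.48 and 33.9 RPKM), and averaged at most 3.83, 1.499 and 7.83 RPKM in the 4 anterior compartments. Their posterior nasal means were 1.77, 0.762 and 3.52 RPKM, within the range of the anterior means. Of the 70 nasal genes, 58 had a higher mean in posterior lateral than in posterior medial palate, with a median log2 ratio of 1.05, against 55.6% of all tested genes and a median of 0.06.

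**Figure D4:**
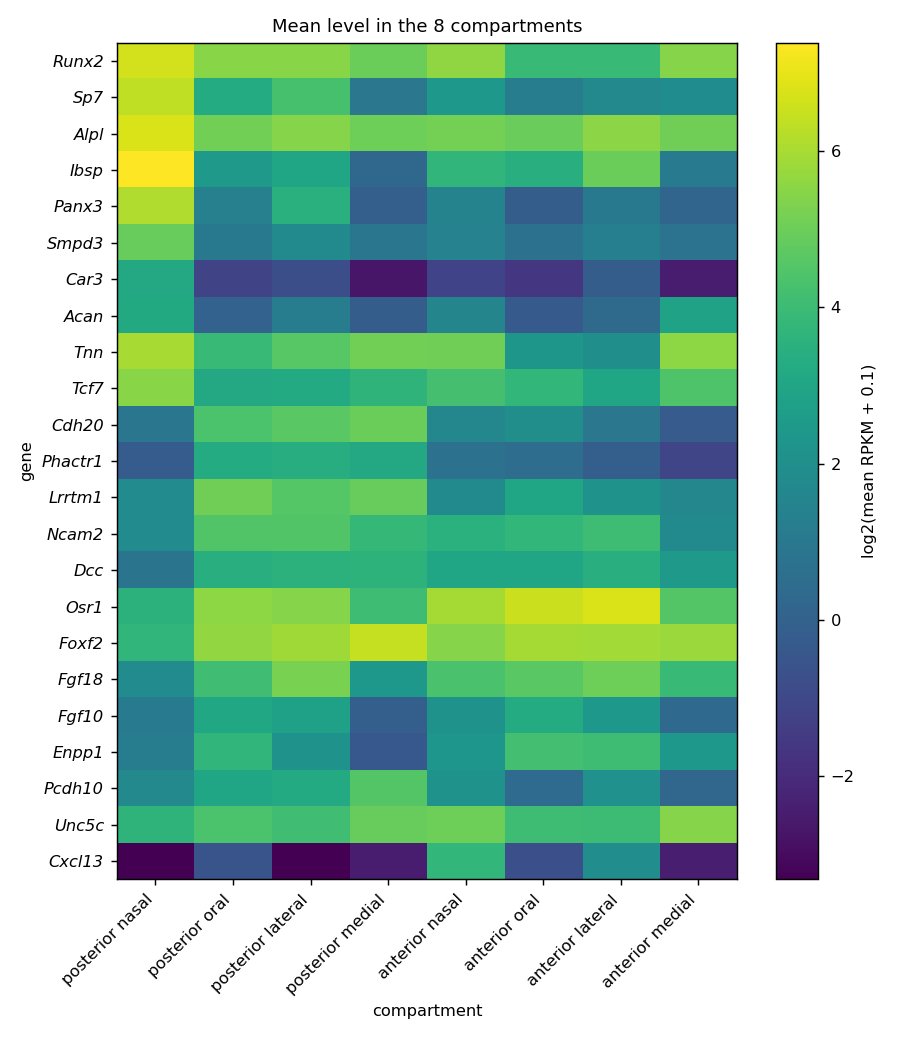
Mean level, as log2(mean RPKM + 0.1), of 23 genes (rows) in the 8 palate compartments (columns) with 3 or 4 libraries each. Sp7, Ibsp, Panx3, Smpd3 and Car3 are brightest in posterior nasal palate (first column), and Foxf2 is dimmest there.

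The same comparison in the anterior palate (3 oral and 4 nasal libraries, 10684 genes tested) gave 0 genes with a limma adjusted p under 0.05, the lowest being 0.114, and 318 at an unadjusted P under 0.05, of which 146 were higher in oral (1.37%) and 172 in nasal palate (1.61%). Of the 62 genes called in posterior oral palate 51 were tested there, 38 of them (74.5%) with the same direction and 16 (31.4%) at an unadjusted P under 0.05 in that direction. Of the 70 posterior nasal genes 29 were tested, 22 (75.9%) with the same direction and 8 (27.6%) at an unadjusted P under 0.05. Over all genes tested in both anterior and posterior palate 52.6% shared a direction. Tnn had the lowest anterior p of the called posterior genes, with a difference of -2.72 ± 0.31 (adjusted p = 0.114). Runx2 (-1.66 ± 0.28, adjusted p = 0.200), Dlx5 (-3.36 ± 0.70, adjusted p = 0.473) and Enpp1 (1.79 ± 0.34, adjusted p = 0.351) had the same direction in the anterior palate, while Ibsp had an anterior difference of 0.10 and Dcc of 0.09.

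**Figure D5:**
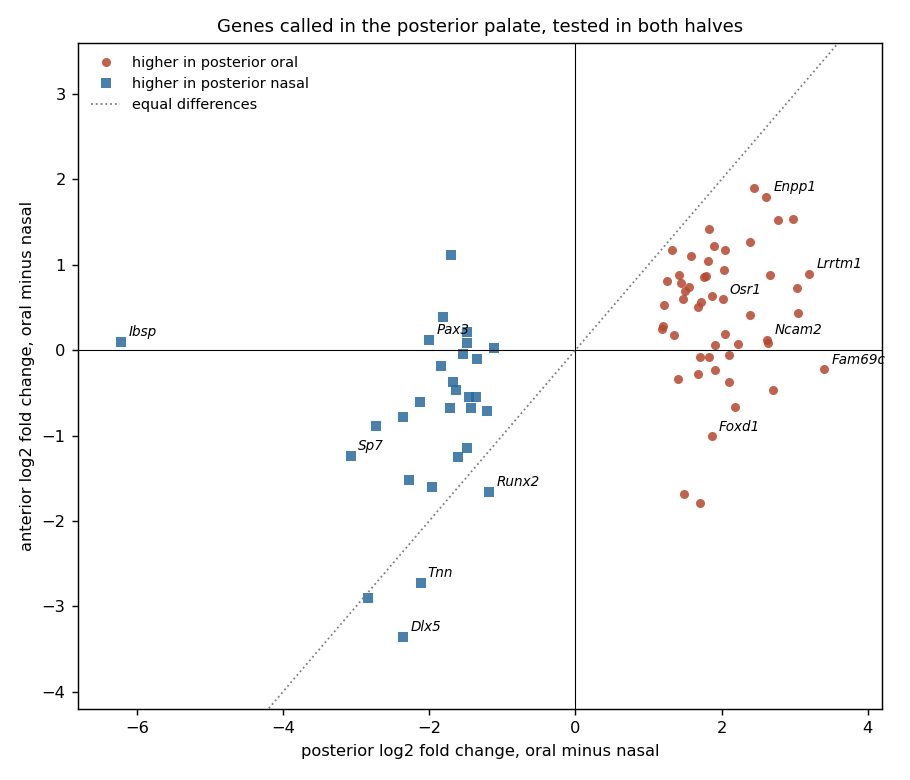
Log2 fold change, oral minus nasal, in the anterior palate (vertical axis) against the posterior palate (horizontal axis) for genes called in the posterior palate and tested in the anterior palate too. Red circles are 51 genes higher in posterior oral and blue squares 29 genes higher in posterior nasal palate; Ibsp, at -6.22 in the posterior palate, has an anterior difference of 0.10.

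Whether an oral-nasal difference itself differed between anterior and posterior palate was tested by the interaction in limma over 13 libraries. It passed an adjusted p of 0.05 for 4 of 11442 genes (0.035%), with 387 at an unadjusted P under 0.05. Pcdh10, a protocadherin, was among them, with a difference between posterior and anterior palate of 2.99 ± 0.41 (log2, adjusted p = 0.0385). It was at 6.39, 9.78 and 6.94 RPKM in posterior oral and 2.40, 3.87 and 3.21 RPKM in posterior nasal libraries, whereas anterior oral libraries had 1.03, 0.929 and 1.78 RPKM and anterior nasal libraries 5.29, 3.09, 4.83 and 4.01 RPKM. The oral and nasal values did not overlap in either region and stood in opposite order. The posterior difference of Pcdh10 alone did not pass (limma adjusted p = 0.0776), and its interaction passed in 2 of 13 leave-one-out fits. The bone genes with the widest posterior contrasts did not pass this test, for example Ibsp (-6.32, adjusted p = 0.253), Smpd3 (-3.03, adjusted p = 0.103) and Sp7 (-1.84, adjusted p = 1.00), so they were not shown to be particular to the posterior palate.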

How the data were processed

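RNA of laser-captured E14.5 palate was amplified with the Ovation kit, made into Nextera libraries and sequenced without keeping strand. The authors aligned the reads (TopHat and mm9 are named in the submitters' processing notes), removed duplicate and multiply aligned reads in GeneSpring and deposited RPKM values for 37406 genes in 25 libraries. No counts were used here. Samples were grouped by their labels. Read totals were inferred from the smallest RPKM steps: 441 of 1022 genes matched a listed transcript length at these totals, and the next most frequent total matched 20.

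Genes that reached 5 RPKM in 3 or more of the 6 libraries were tested with limma 3.58.1 (R 4.3.3) on log2(RPKM + 0.1), oral minus nasal, two-sided, without covariates, with Benjamini-Hochberg adjustment. Errors after ± are standard errors of the log2 difference. The fit was tested on simulated data. The gene lists and comparisons were chosen with earlier results of these data known. Named genes are up to 12 per direction with the largest difference among called genes that do not overlap, core list members whatever their result, up to 8 further called members per list, and up to 5 interaction genes per direction. One gene that the rule selects is not reported here. Of 668 list entries 659 had a row. Alternatives changed the pseudocount, filter, scaling, variance model, samples and blocks. Tables and plots were made with Python 3.11.15, pandas 2.3.3 and matplotlib 3.10.9.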

Additional observations from a re-analysis of the deposited data

Results flagged for a closer look

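The oral-nasal difference differed between the posterior and anterior palate for 4 genes by the limma interaction test with Benjamini-Hochberg adjustment, of which 3 are described. Pcdh10, a protocadherin, differed by 2.99 ± 0.41 (adjusted p = 0.0385). It was at 6.39, 9.78 and 6.94 RPKM in posterior oral and 2.40, 3.87 and 3.21 RPKM in posterior nasal libraries. The order was reversed in the anterior palate, with 0.929 to 1.78 RPKM in oral and 3.09 to 5.29 RPKM in nasal libraries. The interaction of Pcdh10 passed in 5 of 21 alternative fits, and in 2 of the 13 leave-one-out fits among them. Its posterior difference alone did not pass (limma adjusted p = 0.0776). Unc5c, a netrin receptor, differed by 1.69 ± 0.25 (adjusted p = 0.0463). It had 18.9 to 23.8 RPKM in posterior oral and 11.5 to 13.2 RPKM in posterior nasal libraries. Anterior oral libraries had 15.6 to 17.9 RPKM and anterior nasal libraries 30.1 to 33.8 RPKM. The interaction of Unc5c passed in 2 of 21 alternative fits and in 0 of the 13 leave-one-out fits. Its posterior difference alone did not pass (limma adjusted p = 0.206). Cxcl13, a chemokine, differed by 7.62 ± 1.00 (adjusted p = 0.0326). Its posterior values were near 0 (0.292 to 0.752 RPKM in oral, listed at 0 in all 3 nasal libraries), whereas anterior nasal libraries had 5.57 to 16.7 RPKM and anterior oral libraries 0 to 1.05 RPKM, it passed in 8 of 21 alternative fits and 4 of 13 leave-one-out fits, and the size depended on the pseudocount (3.87 with a pseudocount of 1, 11.9 with 0.01).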

How the results depend on the processing

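All 61 genes chosen by the naming rule with an adjusted p under 0.05 kept their direction in all 18 alternative fits, and Dcc, Smpd3, Car3 and Ramp1 passed the threshold in all 18. Oral and nasal values of the 61 did not overlap, which fixes the direction in fits that leave out libraries or block on run or replicate. The counts did not hold as well. Genes called higher in oral and in nasal palate numbered 5 and 6 with no filter on low values, 38 and 44 with a mean-variance trend, 323 and 305 with quality weights for the libraries, 46 and 22 with all 25 libraries in one fit, 5 and 10 with the run as a block, and 26 and 38 without replicate 1 of both compartments. Leaving out single libraries gave 12 to 35 oral and 17 to 51 nasal genes: 35 and 51 without oral replicate 1, 19 and 38 without oral replicate 2, 16 and 29 without oral replicate 3, 31 and 29 without nasal replicate 1, 34 and 36 without nasal replicate 2, and 12 and 17 without nasal replicate 3. By P under 0.05 and over 2-fold there were 633 oral and 451 nasal genes with no filter, 460 and 293 with a minimum of 1 RPKM, 317 oral without replicate 1 of both compartments, and 174 to 272 oral and 157 to 213 nasal genes in leave-one-out fits. Whether replicate numbers pair the libraries could not be told from 3 correlations of deviations (0.218, -0.0755 and 0.418). With the replicate block 40 oral and 50 nasal genes were called. The interaction was called for 7 genes with a pseudocount of 1, 1 with 0.01, 0 with quantile normalization (413 unadjusted), 1 with a trend, 11 with quality weights, 10 with all libraries, 0 with the replicate block (475 unadjusted), and 0 to 5 in leave-one-out fits. The causes of these changes were not tested. Leave-one-out fits had fewer libraries, and the looser filters tested 20679 or 14025 genes. Below about 0.199 RPKM a value on a transcript of 2000 bases rests on at most 1 read in the shallowest library.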

Other observations

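Some genes outside the fixed lists, chosen after their values were seen, lay beside each other in mm9 and were called in the same direction. Gm19805 ends 23 bases before Foxf2 on chromosome 13 and overlaps 1700018A04Rik. Its values were 6.93, 6.31 and 6.25 RPKM in oral and 1.16, 1.39 and 0.839 RPKM in nasal libraries (log2 difference 2.45 ± 0.23, limma adjusted p = 0.00429), so the 3 neighbouring transcripts were all higher in posterior oral palate. The libraries do not keep strand, and reads from overlapping transcripts cannot be told apart.

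Dio3, the enzyme that inactivates thyroid hormone, and Dio3os, a noncoding transcript 1100 bases away on chromosome 12, were also both higher in oral palate. Dio3 was at 12.3, 15.1 and 18.3 RPKM in oral and 5.64, 3.20 and 3.42 RPKM in nasal libraries (log2 difference 1.90 ± 0.28, limma adjusted p = 0.0212). Dio3os was at 13.5, 23.1 and 22.9 RPKM in oral and 5.67, 6.73 and 5.03 RPKM in nasal libraries (log2 difference 1.72 ± 0.27, limma adjusted p = 0.0280). The oral and nasal values of both genes did not overlap.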
